A study of Mus musculus with 3 samples.

Results

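Hepatocyte RNA from mice on a high-fat diet that received control IgG was set against hepatocyte RNA from mice on a standard diet. Both samples came from male wild-type C57BL/6 mice, which entered the diets at 6 weeks of age and were 22 weeks old when the cells were taken. The standard-diet sample came from mice fed the standard chow for 16 weeks. The other sample came from mice fed the high-fat diet for 16 weeks and injected intraperitoneally with control IgG 2 times a week over the last 6 weeks. In both groups the mice were fasted overnight and the liver was digested with collagenase. IgG is listed for the high-fat mice and no injection for the others, and thus the effects of diet and injection cannot be told apart. How many mice gave RNA to an array is not given in the labels. Each group was measured on 1 single-colour array, called the standard-diet array and the HFD-IgG array below, and both lay on the same slide. A further array, on another slide, held RNA of high-fat diet mice given an antibody that blocks the integrin VLA-4, and its values stand beside some genes as a reference only.

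Of 31873 gene names on the array, 22990 stood well above background on 1 or more of the 3 arrays, and 17299 were so on both arrays compared here. These 17299 genes are called measured. Of them, 4375 had a bright probe of low purine content, meaning a mean log2 signal on the 2 arrays at or above the 75th percentile of the array and at most 50% A or G in the probe. The account below follows mainly these 4375 genes, called bright low-purine genes, and sorts them into groups by gene family and by pathway.

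In an overnight fast hepatocytes release glucose and burn fatty acids, and low insulin and active PPAR-alpha raise the genes of these programmes. Hepatocytes also carry many cytochrome P450 enzymes, which oxidise fatty acids, steroids and drugs and several of which differ between the sexes in mice. Long high-fat feeding makes mice obese and fattens the liver, and it is known for insulin resistance and low-grade inflammation. Collagenase preparations of hepatocytes can also carry sinusoidal endothelial cells, the resident macrophages called Kupffer cells, and stellate cells.

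Values are relative signals, the processed signal of a probe divided by the 75th percentile over 43020 non-control spots of its array, which was 574 on the standard-diet array and 500.3 on the HFD-IgG array. They serve to compare 1 probe between arrays and not 1 gene with another. Because each group has a single array, no test and no measure of the spread between mice can be given. Genes are picked out by size alone, at 2-fold or more. The only error at hand is that within an array: the scanner's own error was 10.0% of the signal of a bright spot, and repeated spots of a probe had a median SD of 0.080 on the standard-diet array and 0.108 on the HFD-IgG array in log2. The scanner error of a difference between bright low-purine probes had a median of 0.204 in log2 and reached 0.209, so a 2-fold difference, 1 in log2, lay well beyond it. Well above background were 57.3% of the non-control spots of the standard-diet array and 66.5% of those of the HFD-IgG array, and 0 were saturated. The difference between the arrays was thus also a difference in how many dim spots gave a signal.

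Probe composition moved with the difference among dim probes. Among genes with a mean log2 level under -2, 8.40% of those whose probe held at most 40% A or G were higher by 2-fold or more in the HFD-IgG sample, against 44.3% of those whose probe held over 60%. The latter had a median relative signal of 0.0731 with the standard diet, 0.167 with HFD-IgG and 0.0815 with anti-VLA-4. Among bright genes the shares were 2.93% and 2.86%. A like pattern was seen between probes of 1 gene. For these pairs dim means a mean log2 level under 0 for both probes, a wider class than the one above. Of 141 genes with 2 dim probes that differed by at least 20 percentage points in A or G, the purine-rich probe was at least 2-fold higher relative to the other in 37 and lower in 3. Of 99 such genes with bright probes, 0 had probes at least 2-fold apart. The first 30 of 60 bases are shown for the probe with the fewest and the probe with the most A or G of 5 genes, because they show what the rule for low-purine probes selects on. Capitals mark A and G. The genes were taken from those with the widest gap.
Gsr, 28.3% A or G (chr8:34808488-34808547, build mm9): AGccctttcttcttctGAGtAttcctGGtt
Gsr, 70% (chr8:34808413-34808472): tAAAGttAGActtGAGGctGGttAGGtAAA
Ahnak, 40% (chr19:9151349-9151408): cAGctGtGGGtAtAGGcGActctcttcttA
Ahnak, 76.7% (chr19:9074153-9074212): ttGtGtGAccAAGAttcGcAAAGAAAGAGA
Tmem87a, 31.7% (chr2:120199645-120199704): tcttGcttccttGGcctttAtAcccttGGc
Tmem87a, 75% (chr2:120188615-120188674): GGAAtGAAAAtGAGAAGtAccAAGcAGGAA
Trim12c, 28.3% (chr7:111489203-111489262): ctGGctctGAtAtGtAtGtccAtttGcctG
Trim12c, 70% (chr7:111488551-111488610): tAtttttGAAGAGcAttGAtAGtctAAAtc
Wdfy1, 35% (chr1:79698903-79698962): GAGAcGctGcAAAtttttGttctttctAct
Wdfy1, 70% (chr1:79699969-79700028): AAAttAtAtttAAAGAAGAAttAGAGGGAG

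Both probes of each bright pair differed the same way. For Gsr, glutathione reductase, the low-purine probe read 19.4 on the standard-diet array and 12.7 on the HFD-IgG array, and the purine-rich probe 5.77 and 4.07. Both were lower, by 1.53-fold and 1.42-fold. For Ahnak, a very large scaffold protein, the low-purine probe went from 2.31 to 5.11 and the purine-rich probe from 0.978 to 1.62, while its 3 probes ran from 0.73 to 1.97 in log2. The dim pairs did not all do so. For Wdfy1, an adaptor protein of endosomes with 4 measured probes, the low-purine probe was 1.45-fold lower (0.760 against 0.523), whereas the purine-rich probe was 3.23-fold higher (0.0613 against 0.198, and 0.0454 on the anti-VLA-4 array). For Tmem87a, a Golgi membrane protein, the low-purine probe was 1.26-fold lower and the purine-rich probe 2.19-fold higher. For Trim12c, of the tripartite motif family, both probes were higher, by 2.51-fold and 3.40-fold.

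**Figure D1:**
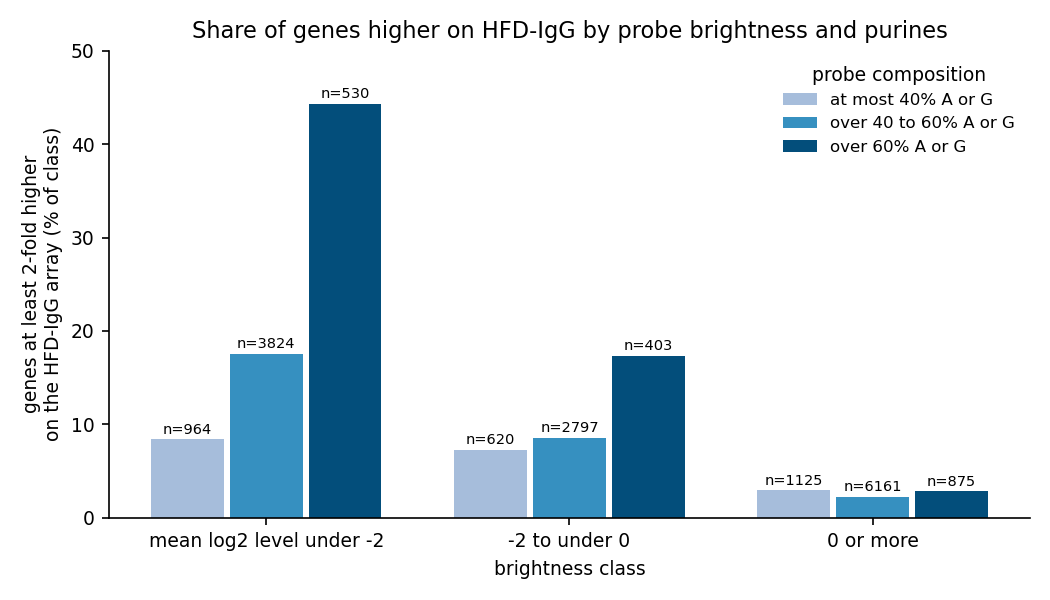
Share of measured genes that were 2-fold or more higher with HFD-IgG (vertical axis, % of the class), by mean log2 level of the gene's probe (groups of bars) and by its share of A or G (colours), with the number of genes above each bar. Among dim genes the share ran from 8.40% to 44.3% with purine content, and among bright genes it was 2.93% and 2.86% at the ends.

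Most genes differed little between the arrays. Of the 4375 bright low-purine genes, 88.0% lay within 1.5-fold, and their differences had a median of -0.12 in log2, a 5th centile of -0.69 and a 95th centile of 0.55. The levels of these genes on both arrays correlated with r = 0.969, which is across genes that share slide and labelling and are not independent. Higher with HFD-IgG by 2-fold or more were 111 of them (2.54%), and lower by as much were 86 (1.97%). Among all 17299 measured genes 1538 (8.89%) were higher and 365 (2.11%) lower, so the excess of higher genes lay mainly outside the bright low-purine set. The split between directions depends on scaling and background: quantile scaling of the arrays gave 1011 higher and 1736 lower measured genes, and normexp, another background correction, moved the median of bright low-purine genes to -0.57 and gave 57 higher and 510 lower of them. The 111 higher genes had a median relative signal of 1.40 on the standard-diet array and 5.36 on the HFD-IgG array. The 86 lower genes had a median of 8.76 and 2.82. At 4-fold 39 were higher and 17 lower, and at 8-fold 9 and 7. For all 197 called genes the dimmer of both signals was at least 143 in scanner units. The brightest control probe without a mouse target reached 59.7. The rule for bright genes made this order nearly certain beforehand, and all 4375 bright low-purine genes read above that control on both arrays. Just inside the 2-fold rule lay Frat1 at 2.01-fold higher and Tlcd4 at 2.01-fold lower, and just outside lay Plk3 at 1.997-fold higher and Bnip3 at 1.9997-fold lower.

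**Figure D2:**
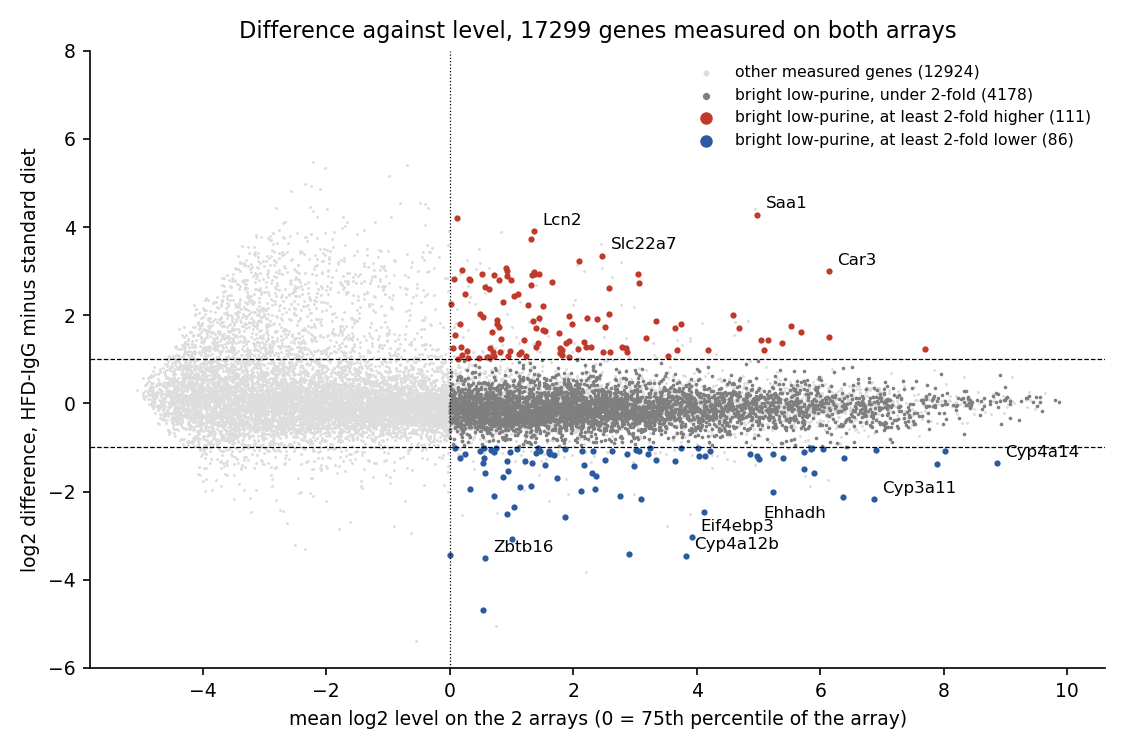
Log2 difference between the HFD-IgG and the standard-diet array (vertical axis) against the mean log2 level on both arrays (horizontal axis, 0 is the 75th percentile of the array), 1 point a gene. Dashed lines mark 2-fold and the dotted line the limit for bright genes. The 111 higher (red) and 86 lower (blue) bright low-purine genes stand out from a band in which 88.0% lie within 1.5-fold, and the grey spread upwards at the left holds dim genes.

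Cytochrome P450 genes were the group with the most members lower on the HFD-IgG array. Of 33 bright low-purine P450 genes, 14 were lower by 2-fold or more and 2 were higher, with a median difference of -0.84, where the background was 1.97% lower and 2.54% higher. Over all 72 measured P450 genes 18 were lower and 7 higher (median -0.41), where 2.11% of all measured genes were lower and 8.89% higher, so that the higher ones were near the background share. The median lay between -0.53 and -0.29 under the alternative settings other than normexp background correction, and at -0.95 with it. The subfamilies differed. All 6 measured Cyp4a genes, which lie together on chromosome 4 and encode omega-hydroxylases of fatty acids, were lower, as were 4 of 7 Cyp3a genes on chromosome 5 and 3 of 11 Cyp2c genes on chromosome 19. Of 9 Cyp2d genes 1 was lower, and of 7 Cyp4f and 6 Cyp2j genes 0 were.

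Cyp4a12b (probe at chromosome 4, 115111580 to 115111639, build mm9) had a relative signal of 46.9 with the standard diet and 4.28 with HFD-IgG, a 10.95-fold lower value, and 4.95 with anti-VLA-4. Cyp4a12a (chromosome 4, 115005258 to 115005317) went from 24.5 to 2.30, 10.7-fold lower. Both are male-predominant in mouse liver, and their copies are so alike that their values are uncertain between them. The fasting- and PPAR-alpha-responsive members were lower by less: Cyp4a32 2.83-fold (90.1 to 31.8), Cyp4a14 2.55-fold (745 to 292) and Cyp4a10 2.12-fold (378 to 178), although the 3 probes of Cyp4a10 ran from -2.10 to -1.09 in log2. Among Cyp3a genes, which oxidise steroids and drugs and are likewise hard to tell apart, Cyp3a41b was 5.94-fold lower (8.85 to 1.49), Cyp3a16 5.50-fold (40.8 to 7.43) and Cyp3a11 4.53-fold (249 to 55.03). The other probe of Cyp3a11 differed by -2.54 in log2, the same way. Cyp2d9, a male-predominant steroid hydroxylase, was 2.97-fold lower (103 to 34.6), and Cyp27a1, which makes 27-hydroxycholesterol and starts the acidic route of bile acid synthesis, was 2.27-fold lower (4.87 to 2.15).

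The 7 higher P450 genes included 2 bright low-purine ones, Cyp2b10 and Cyp2c70. Those named here were chosen after their values were seen. The largest folds were those of dimmer genes, Cyp2b9 at 14.3-fold (0.0935 to 1.33, with a probe of 58.3% A or G) and Cyp4b1 at 8.17-fold (0.169 to 1.38). Cyp2b10, the classical target of the receptor CAR, was 3.67-fold higher (5.31 to 19.5, and 32.1 on the anti-VLA-4 array). Cyp2c70, which makes the muricholic acids of mice, was 3.25-fold higher (6.94 to 22.6), the 1 Cyp2c gene to be so. Of its neighbours on chromosome 19, Cyp2c37 was 2.22-fold lower (43.4 to 19.5, with 45.8 on the anti-VLA-4 array), Cyp2c38 2.28-fold lower (26.5 to 11.6, with 26.8) and Cyp2c39 2.22-fold lower (10.9 to 4.89, with 9.11). The other probe of Cyp2c38 differed by -0.0077 in log2, so that call rests on 1 of 2 disagreeing probes, whereas the other probe of Cyp2c37 differed by -1.102.

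**Figure D3:**
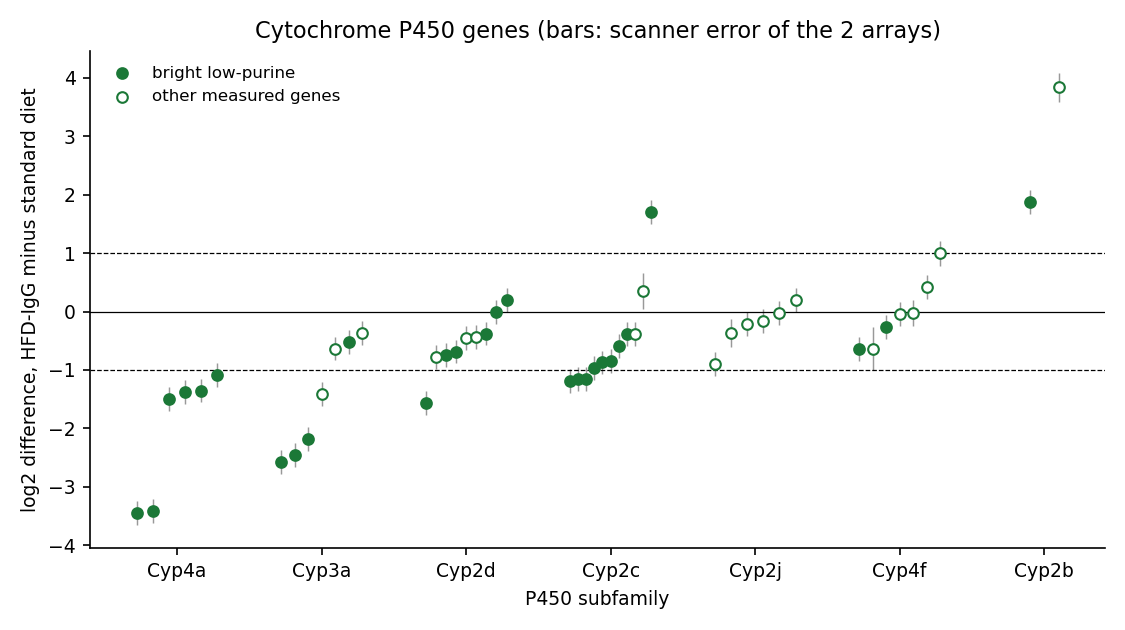
Log2 difference, HFD-IgG minus standard diet (vertical axis), of single P450 genes in 7 subfamilies (horizontal axis), with filled points for bright low-purine genes, open points for other measured genes and bars for the scanner error of both arrays. All 6 Cyp4a genes lie under the lower dashed line of 2-fold, from -3.45 to -1.09, and both Cyp2b genes lie above the upper one.

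Among the 25 lowest genes were a few regulators of transcription, translation and signalling. Zbtb16, the zinc finger repressor PLZF, had the lowest difference of the genes named by rule (5.04 to 0.441, 11.4-fold lower; chromosome 9, 48462419 to 48462478). Lpin1, the phosphatidate phosphatase lipin 1 that also acts as a nuclear coactivator in fasting, was 8.48-fold lower (5.88 to 0.693; chromosome 12, 16543695 to 16543754). Eif4ebp3, which holds back cap-dependent translation, was 8.17-fold lower (43.5 to 5.33). The anti-VLA-4 array read 0.556, 1.04 and 3.85 for them. Irs2, the insulin receptor substrate that rises in the fasted liver, was 5.72-fold lower (4.55 to 0.796), and Egfr, the receptor of epidermal growth factor, 4.49-fold lower (18.1 to 4.02). Depp1, a FOXO target, was 3.86-fold lower (10.0 to 2.60), and Gfra1, a coreceptor of the GDNF family, 2.89-fold lower (3.28 to 1.13). The anti-VLA-4 array read 7.72 for Egfr and 4.80 for Depp1, between both others. Of 12 bright low-purine genes of insulin signalling, Irs2 was the only one lower and Ddit4 the only one higher, with a group median of -0.25. Over all bright low-purine genes 1.97% were lower and 2.54% higher, and 1 gene each way is too few to tell. Ddit4, an inhibitor of mTORC1, was 2.25-fold higher (3.71 to 8.35). Insulin-suppressed Igfbp1 and Igfbp2, whose probes hold over 50% purines, read 61.2 and 7.30, and 127 and 38.0, on the standard-diet and HFD-IgG arrays. Both were thus lower, while the anti-VLA-4 array read 35.4 and 55.8.

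Enzymes of fat and amino acid metabolism were mostly within 2-fold, with single members well below. The counts of this paragraph stand against 1.97% lower and 2.54% higher over all bright low-purine genes. Of 23 bright low-purine genes of fatty acid oxidation and ketogenesis 3 were lower and 0 higher (median -0.30), and 2 of the 3 were Cyp4a10 and Cyp4a14. The third was Ehhadh, the peroxisomal bifunctional enzyme and a PPAR-alpha target, at 172 on the standard-diet array and 39.3 on the HFD-IgG array (4.39-fold lower; chromosome 16, 21761914 to 21761973). Acot5, a peroxisomal acyl-CoA thioesterase, was 3.66-fold lower (4.76 to 1.30), and its other probe differed by -0.55 in log2. Of 9 bright low-purine genes of fatty acid and sterol synthesis 3 were lower and 0 higher (median -0.54). These were Idi1, the isopentenyl diphosphate isomerase (2.48-fold, 3.65 to 1.47), Insig2, which retains the SREBP complex in the endoplasmic reticulum (2.36-fold, 64.4 to 27.3), and the elongase Elovl5 (2.14-fold, 78.2 to 36.5). Over all 34 measured members of that group 8 were lower and 3 higher, where 2.11% and 8.89% of all measured genes were. Among 16 genes of lipid storage and uptake 2 were lower, Lpin1 and the lipid droplet protein Cidec (2.44-fold, 15.9 to 6.52). As many were higher, namely the fatty acid receptor Cd36 (2.59-fold, 2.28 to 5.90) and the fatty acid binding protein Fabp5 (2.08-fold, 1.08 to 2.23). Of 34 genes of amino acid catabolism and the urea cycle 4 were lower and 0 higher, although the group median was 0.13. They were Oat, ornithine aminotransferase (4.02-fold, 75.2 to 18.7), Aass of lysine breakdown (2.38-fold, 129 to 54.2), and the urea cycle enzymes Cps1 (2.20-fold, 56.0 to 25.4) and Asl (2.01-fold, 82.4 to 40.9).

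Other leading lower genes had varied functions. Slco1a1, an organic anion transporter of the sinusoidal membrane, was 5.07-fold lower (4.66 to 0.919), and the anti-VLA-4 array read 2.68. The complement regulator Susd4 was 3.96-fold lower (8.67 to 2.19), and C6, of the membrane attack complex, 2.99-fold lower (8.56 to 2.87). Malat1, a long noncoding RNA of nuclear speckles, was 3.83-fold lower (2.47 to 0.644; chromosome 19, 5795713 to 5795772). Tmem43, of the inner nuclear membrane, was 3.22-fold lower (6.00 to 1.86), and Btg3, an antiproliferative protein, 3.01-fold lower (2.58 to 0.858). Cib3, a calcium-binding protein, went from 3.26 to 1.02, the actin-binding Ablim3 from 9.16 to 2.91, and Pax2, a transcription factor of kidney development, from 12.9 to 4.83. Foxa1, a pioneer factor of the liver, was 2.54-fold lower (4.03 to 1.59). It was the only one of 19 bright low-purine nuclear receptors and liver factors past 2-fold, where 1.97% of all bright low-purine genes were lower. The small heat shock protein Hspb1 was 2.38-fold lower (49.9 to 20.9), and Tubb2a, a beta tubulin, 2.30-fold lower (47.7 to 20.8). Il1r1, the receptor of interleukin 1, was 2.37-fold lower on the HFD-IgG array (2.27 to 0.957) and read 3.08 on the anti-VLA-4 array. The rule left out predicted loci. Of these, Gm2922 had the lowest value of all bright low-purine genes (25.8-fold lower, 7.37 to 0.286), a choice made after its value was seen.

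**Figure D4:**
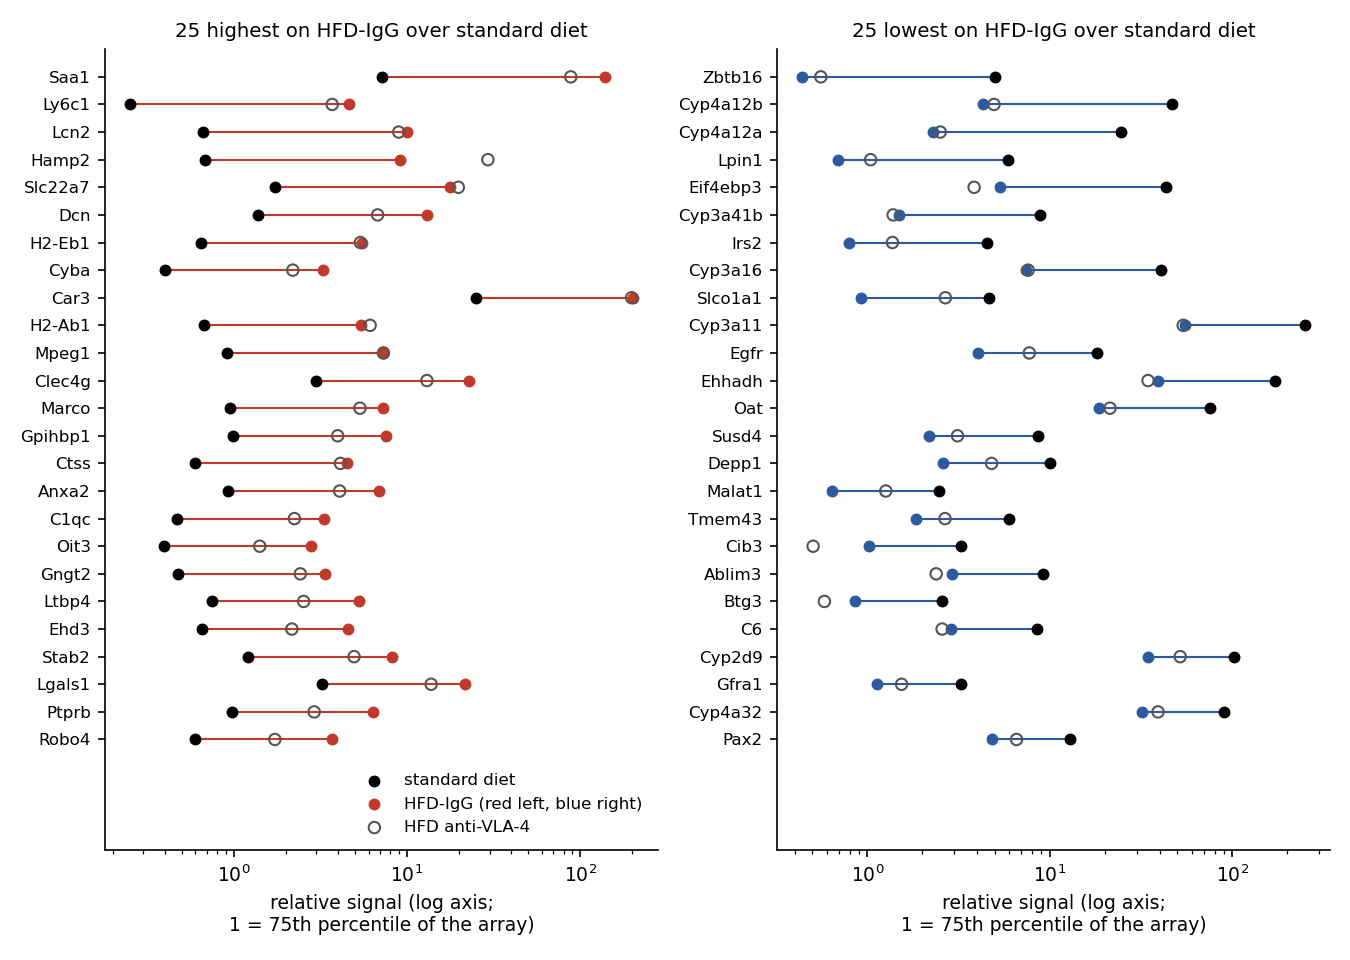
Relative signal (horizontal log axis, 1 is the 75th percentile of the array) of the 25 genes with the highest (left) and the 25 with the lowest (right) difference named by rule, for standard diet (black), HFD-IgG (red or blue) and anti-VLA-4 (open circles). Folds run from 6.20 to 19.4 on the left and from 2.66 to 11.4 on the right. Both high-fat arrays are set against the same 1 standard-diet array.

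Acute phase genes led the genes that were higher on the HFD-IgG array. Saa1, a serum amyloid A that the liver secretes in inflammation, read 7.17 with the standard diet, 139 with HFD-IgG and 88.1 with anti-VLA-4 (19.4-fold higher; chromosome 7, 53996070 to 53996129). Its close copy Saa2 cannot be told from it with certainty. Lcn2, lipocalin 2, which binds bacterial siderophores, was 15.1-fold higher (0.661 to 9.97; chromosome 2, 32240199 to 32240258). Hamp2, a copy of the hepcidin gene, was 13.2-fold higher (0.685 to 9.05) and read 29.3 on the anti-VLA-4 array. Hamp, the hepcidin that controls iron export, was 1.33-fold higher (80.2 to 107), a gene looked up after Hamp2 was seen. Of 24 bright low-purine acute phase and complement genes 4 were higher and 1, C6, was lower, with a median of 0.05, against a background of 2.54% and 1.97%. Besides Saa1 and Lcn2 the higher ones were C1qb and C1qc, which macrophages make. Alb, albumin, read 747 and 762. Of 15 bright low-purine serpins and 10 apolipoproteins 0 were past 2-fold, which is near that background for groups of this size. Over all 32 measured serpins 7 were higher and 2 lower, where 8.89% and 2.11% of all measured genes were.

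Genes of hepatocyte transport and metabolism were also among the higher ones. Slc22a7, the organic anion transporter OAT2, was 10.2-fold higher (1.74 to 17.7, and 19.8 on the anti-VLA-4 array; chromosome 17, 46569272 to 46569331). Car3, carbonic anhydrase 3, was 8.04-fold higher (24.9 to 200.5, and 198 on the anti-VLA-4 array; chromosome 3, 14871781 to 14871840). Slc3a1, the heavy subunit of the cystine carrier, was 3.82-fold higher (1.40 to 5.36). These transporters were exceptions in their family, since of 81 bright low-purine solute carriers 3 were higher and 2 lower, a share near the background. The remaining higher one was Slc46a3, a lysosomal carrier, at 2.25-fold, named after its value was seen, and the lower ones were Slco1a1 and the mitochondrial glutamate carrier Slc25a22 (2.45-fold, 8.99 to 3.67). Sult5a1, a sulfotransferase, was 3.89-fold higher (0.734 to 2.86), Gsta1, a glutathione S-transferase, 2.61-fold (2.81 to 7.33), and Akr1c6, a 17-beta-hydroxysteroid dehydrogenase, 2.34-fold (136 to 318). Of 11 bright low-purine hepatokines and growth factors 3 were higher and 1, Egfr, lower, against the same background of 2.54% and 1.97%. The higher ones were Enho, which encodes adropin (2.79-fold, 5.42 to 15.1), Angptl6 (2.72-fold, 1.40 to 3.80) and Gdf15, a stress-induced cytokine (2.43-fold, 4.42 to 10.8). A few further metabolic genes were chosen after their values were seen. Aqp8, a water channel of the bile canaliculus, was 4.01-fold higher (12.03 to 48.2), Acat2, the cytosolic acetyl-CoA acetyltransferase, 3.26-fold (14.2 to 46.2), and Inmt, an indolethylamine N-methyltransferase, 2.82-fold (42.3 to 119).

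Stress and clock genes were among the called genes as well. Dusp1, a phosphatase that switches off MAP kinases, was 3.27-fold higher (1.46 to 4.77), and Trp53inp1, a p53 target, 3.32-fold (3.13 to 10.4). Ccnd1, cyclin D1, was 2.59-fold higher (1.68 to 4.35), while Gadd45b, a growth arrest gene, was 2.23-fold lower (1.77 to 0.791). The clock-controlled repressor Bhlhe40 was 2.26-fold higher (1.08 to 2.44) and the deadenylase Noct, nocturnin, 2.25-fold (4.88 to 10.98). Hmox1, haem oxygenase, was 2.40-fold higher (1.01 to 2.42) by its brighter probe, but its other probe differed by only 0.29 in log2. Trp53inp1 likewise had a second probe under 2-fold, at 0.74 in log2. Dio1, the deiodinase that activates thyroid hormone, was 2.30-fold higher (8.47 to 19.5). Hspa5, the main chaperone of the endoplasmic reticulum, read 145 and 139. Of 13 bright low-purine genes of folding and stress there 0 were past 2-fold. That is near the share over all bright low-purine genes, of which 2.54% were higher and 1.97% lower.

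Interferon and antigen presentation genes leaned upwards. Of 43 measured interferon-induced genes 20 were higher by 2-fold or more and 0 lower (median 0.96), and of 15 interferon-induced GTPases 9 and 0 (median 1.23), against 8.89% and 2.11% of all measured genes. The bright low-purine members were fewer: 2 of 16 (median 0.26) and 2 of 3 (median 1.28) were higher and 0 lower. These were Ifi47 (3.01-fold, 1.96 to 5.91), Usp18, the protease that removes ISG15 (2.12-fold, 1.32 to 2.81), Tgtp2 (4.96-fold, 0.819 to 4.06) and Irgm2 (2.43-fold, 3.14 to 7.64), of which Tgtp2 has a close copy. The immunoproteasome subunit Psmb8 was 2.40-fold higher (2.21 to 5.32), the only one of 18 bright low-purine proteasome subunits past 2-fold, and that group's median was -0.40. Other interferon-responsive genes, chosen after their values were seen, were Rtp4 at 3.95-fold (1.93 to 7.62), Samd9l at 3.70-fold (0.886 to 3.28) and Ly6e at 3.51-fold (7.15 to 25.1). The MHC class II genes H2-Eb1 and H2-Ab1 were 8.47-fold (0.645 to 5.46) and 7.99-fold higher (0.676 to 5.40), and the anti-VLA-4 array read 5.38 and 6.12. H2-T10, a class I-like gene with close relatives, was 2.27-fold higher, and of 12 bright low-purine MHC genes 3 were higher and 0 lower, where 2.54% and 1.97% of all bright low-purine genes were. The median over all 23 measured MHC genes was 0.44, but -0.23 with normexp.

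Many of the other leading higher genes are markers or known products of non-parenchymal liver cells. Of the macrophage the scavenger receptor Marco was 7.65-fold higher (0.947 to 7.24), the pore-forming Mpeg1 7.92-fold (0.915 to 7.25), the cysteine protease Ctss 7.53-fold (0.598 to 4.50), Cyba, a subunit of the NADPH oxidase, 8.19-fold (0.400 to 3.27), C1qc 7.10-fold (0.469 to 3.33) and Vsig4 5.602-fold (0.906 to 5.08). Of the endothelium the lectin Clec4g was 7.66-fold higher (2.98 to 22.8), the hyaluronan receptor Stab2 6.75-fold (1.21 to 8.16), Gpihbp1, which carries lipoprotein lipase to the capillary lumen, 7.59-fold (0.993 to 7.53), the phosphatase Ptprb 6.45-fold (0.980 to 6.32), Robo4 6.20-fold (0.598 to 3.71) and Egfl7 6.18-fold (2.40 to 14.8). Oit3 (7.03-fold, 0.396 to 2.78) and the endocytic protein Ehd3 (6.98-fold, 0.657 to 4.59) are also enriched there. Dcn, the matrix proteoglycan decorin of stellate cells and fibroblasts, was 9.43-fold higher (1.39 to 13.1; chromosome 10, 96980233 to 96980292). Ltbp4, which binds latent TGF-beta, was 7.005-fold higher (0.752 to 5.27). The cell surface protein Ly6c1, found on endothelium and monocytes and with near copies, was 18.4-fold higher (0.253 to 4.65). Of less restricted genes, Anxa2, annexin A2, was 7.51-fold higher (0.922 to 6.93), Lgals1, galectin 1, 6.63-fold (3.24 to 21.5), Gngt2, a G protein gamma subunit, 7.01-fold (0.477 to 3.34) and Tagln2, transgelin 2, 4.69-fold (1.12 to 5.24). On the anti-VLA-4 array the endothelial and stellate genes lay between the other arrays, as with Clec4g at 13.02, Stab2 at 4.95 and Dcn at 6.76. The macrophage genes named above did so too, as with Marco at 5.35 and C1qc at 2.24, except Mpeg1 at 7.31.

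The marker lists moved with these genes. The summed relative signal of 12 Kupffer cell and macrophage markers was 9.69 with the standard diet, 61.7 with HFD-IgG and 44.4 with anti-VLA-4. That of 9 sinusoidal endothelial markers was 17.2, 68.8 and 39.6, and that of 10 stellate and fibroblast markers 3.35, 32.0 and 15.8. On the standard-diet array 10 of 12 macrophage, 9 of 9 endothelial and 3 of 10 stellate markers were well above background, and on the HFD-IgG array all were. For dim markers this detection is weak evidence of expression. With HFD-IgG most spots of 11 control probes without a mouse target also passed background, against 1 with the standard diet. Reln read 0.0390 there, Cd68 0.102, Des 0.156 and Col1a1 0.173. Dim genes with probes over 60% A or G had a median of 0.167 there. Brighter markers such as Dcn, at 13.1, and Ecm1, at 12.9, lay far above that level. Kdr, an endothelial receptor, read 9.07 and 9.25 by its brighter probe, whereas its other probe was higher by 2.66 in log2. By the brighter probe, Kdr and Pecam1 were the endothelial markers under 2-fold. The sum of 10 hepatocyte markers, all well above background on each array, was 4755, 4610 and 4567. Sums of neutrophil and monocyte markers were 0.789, 1.57 and 3.25, of T and NK cell markers 3.99, 3.46 and 3.72, of B and plasma cell markers 0.0993, 0.250 and 0.221, of cholangiocyte markers 0.710, 0.990 and 0.892, of erythroid markers 10.3, 13.7 and 15.5, and of platelet markers 0.137, 0.335 and 0.240. Members of a list could differ in direction: of the cholangiocyte markers Spp1 read 0.0854 and 0.352 but Sox9 0.301 and 0.182, with a median difference of -0.38 over the measured ones. Of the erythroid markers Alas2 read 9.09 and 13.3, but Hba-a1, an alpha globin, 1.101 and 0.388. Of the T and NK markers only Cd3e (1.77 and 1.56) and Nkg7 (2.14 and 1.63) were well above background with the standard diet. Both were lower with HFD-IgG and gave most of the sum. The others were dim and read higher, as Cd3g at 0.00710 and 0.124. Adipocyte markers summed to 0.243, 3.77 and 2.93, of which Cfd, adipsin, gave 0.148, 3.47 and 2.86, with Lep and Plin1 not well above background on either array compared. Whether more cells of a type or more RNA per cell gave these sums cannot be told apart in bulk RNA. The part of these cells in the antigen presentation, interferon, matrix and cytoskeleton genes was not tested.

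Several large families show how far the members of other groups moved. Whether these families are unrelated to the diet was not tested. Of 77 cytosolic and 77 mitochondrial ribosomal protein genes 0 were past 2-fold in either direction, with medians of -0.13 and -0.08. Of 19 apolipoproteins and 9 major urinary proteins 0 were, but these families are small. Over all measured genes 8.89% were higher and 2.11% lower. Of 289 zinc finger genes 5 were higher and 5 lower (median -0.15), and of 37 complex I subunits 1 was higher. Among 25 bright low-purine translation factors Eif4ebp3 was the only one past 2-fold, where 1.97% of all bright low-purine genes were lower and 2.54% higher. Olfactory receptors, which liver is not known to express, had 14 of 125 higher and 6 lower, where 8.89% and 2.11% of all measured genes were, and only 2 of them were bright low-purine genes. Of the 111 higher genes 50 belonged to any of the 80 groups, and of the 86 lower genes 40.

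**Figure D5:**
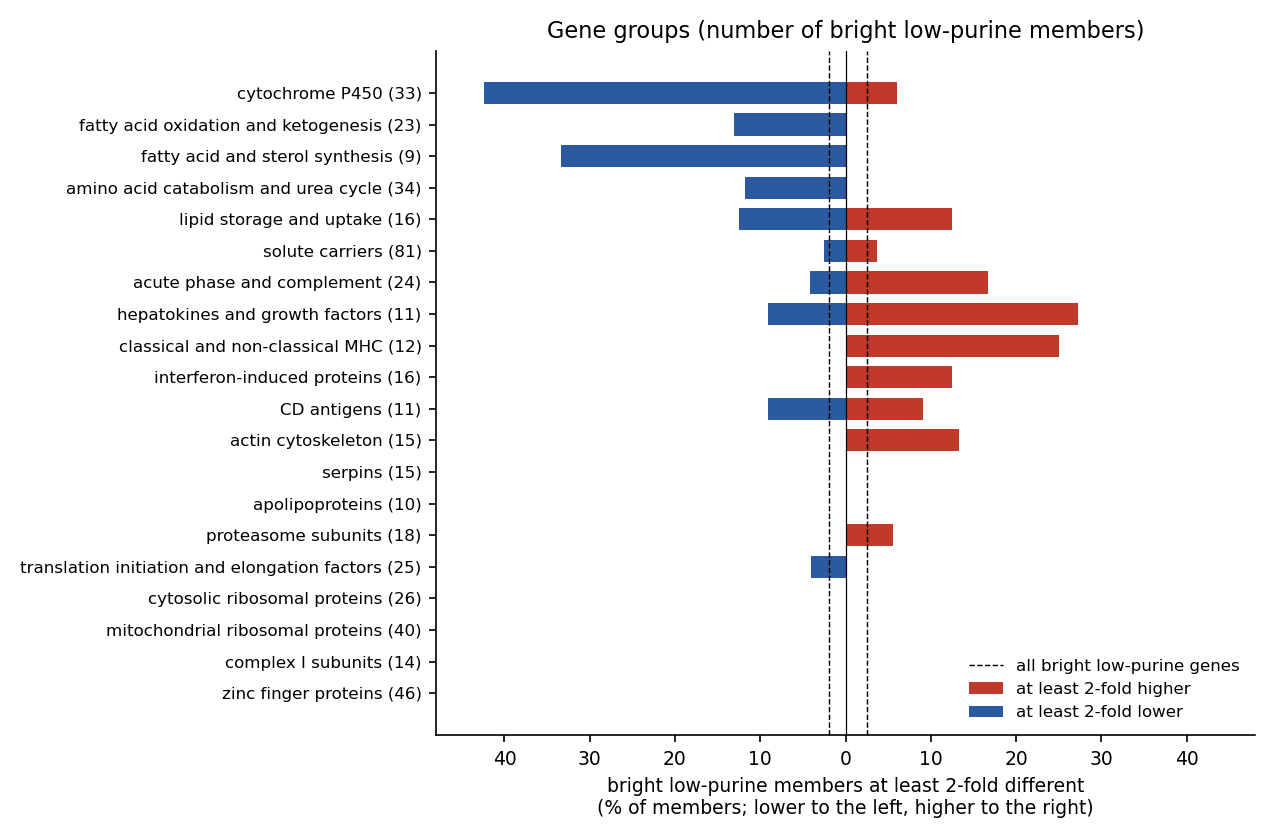
Share of bright low-purine members at least 2-fold lower (bars to the left) and higher (bars to the right) on the HFD-IgG array in 20 gene groups, as % of members, with the number of members in brackets. Dashed lines are the shares over all bright low-purine genes, 1.97% lower and 2.54% higher. Of 33 P450 genes 14 were lower. The ribosomal protein, complex I, serpin, apolipoprotein and zinc finger groups have no bar, which in small groups is near the share over all bright low-purine genes.

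Opposite calls between probes of a gene were rare, though sizes could differ, as given above for Acot5, Cyp2c38, Hmox1, Kdr and Trp53inp1. Of 3394 genes with several measured probes, 2 had probes past 2-fold in opposite directions, and in 0 of these were the probes bright. Among the 50 genes named as highest or lowest, 5 had several measured probes: Cyba (3.002 and 3.03 in log2), Ltbp4 (2.81 and 2.87), Ptprb (2.69 and 2.76), Cyp3a11 (-2.18 and -2.54) and Egfr (-2.17 to -1.50). The other 45 rest on 1 probe each, as do 85 of the 111 higher and 72 of the 86 lower genes.

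Some genes gave a signal on 1 of both arrays only. On the HFD-IgG array 3862 genes were well above background that were not so on the standard-diet array, against 821 the other way round. Control probes without a mouse target leaned the same way, with most spots above background for 11 probes against 1. For genes seen on 1 array a bound was taken against the lowest signal well above background on the dimmer array. Where the probe's own signal there was higher, that was used. Among probes of at most 50% A or G, Pdgfrb, the PDGF receptor of stellate cells and pericytes, was at least 32.4-fold higher (0.832 with HFD-IgG and 0.0428 with anti-VLA-4). The next-highest bound was that of Oaz3, at least 26.9-fold, with a like pattern (0.691 with HFD-IgG and 0.0365 with anti-VLA-4). Whether such signals are particular to the HFD-IgG array was not tested. Trem2, a receptor of lipid-handling macrophages, was at least 22.6-fold higher (0.580 with HFD-IgG and 0.178 with anti-VLA-4), and Cyp2b13, a female-predominant P450, at least 22.0-fold (0.723 and 0.945). In the other direction Dmbt1, a secreted scavenger receptor of epithelia, was at least 49.1-fold lower, with 1.55 in the standard-diet sample and no probe well above background in the HFD-IgG sample. Meig1, known for its role in spermiogenesis, was at least 8.97-fold lower (0.392). The genes of this paragraph were chosen after their values were seen, and they lay below the bright range.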

How the data were processed

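RNA was labelled with Cy3 and measured on single-colour Agilent arrays. The spot intensity values and their background subtraction come from the authors' scanner program. The submitters' processing notes name Feature Extraction in version 11.0.1.1. The deposited value table holds a ratio for 23206 spots, equal within 1.68e-08 to the scanner signal over the array's 75th percentile, and was an alternative. 0 columns were left unmatched. From the scanner files, log2 signals minus the log2 75th percentile were compared. Flagged spots were left out, spots of a probe averaged, and a gene took its brightest probe. Of 21319 measured probes 74.5% were named through a RefSeq table of names, and others kept the array's name. Positions are the files' own (mm9), and exon or UTR was not assigned. Genes named are the 25 highest and 25 lowest bright low-purine genes, leaving out predicted loci, whose other probes differed the same way by at least 1.5-fold. Added were up to 4 members of each group past 2-fold, or else its 2 brightest. Genes and lists were chosen with earlier results of these data known. Steps were tested on simulated data. Settings tried included quantile, cyclic loess and normexp (offset 50). Tools were R 4.3.3 with limma 3.58.1, and Python 3.11.15 with pandas 2.3.3, numpy 2.4.6 and matplotlib 3.10.9.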

Additional observations from a re-analysis of the deposited data

Results flagged for a closer look

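Control probes without a mouse target, which measure no gene of the comparison, gave more signal on the HFD-IgG array. Of 35 such probes 14 were at least 2-fold higher there than on the standard-diet array and 0 were lower. With HFD-IgG most spots stood above background for 11 probes, against 1 with the standard diet and 3 with anti-VLA-4. The signals were small, with a highest probe median of 59.7 in scanner units against 21.4 and 18.9. The labels do not say whether control RNA was added. These 11 had the following median log2 differences, HFD-IgG minus standard diet. Of the adenovirus E1A control probes, a104 differed by 4.16, n11 by 3.58, a97 by 3.23, a107 by 3.15, n9 by 3, a20 by 2.36 and a22 by 1.11. Of the external RNA control (ERCC) probes, number 00043 differed by 3.43, 00012 by 2.12 and 00028 by 1.71. The control probe ETG10_234183 differed by 3.52. The 153 spots of the negative control had a median signal of 3.77 on the standard-diet and 3.93 on the HFD-IgG array.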

How the results depend on the processing

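With 1 array per group no replicate could be left out. No paired analysis was possible because each group has 1 array, and the arrays compared share their slide. The 50 highest and lowest genes stayed past 2-fold, the same way, in all 11 settings of scaling, background, filter and probe choice. These genes were picked for extreme differences. The filter settings and the deposited values could hardly change them, nor could probe choice for genes with 1 measured probe. Over all 11 settings the 178 named genes gave 1954 values. Of these, 189 moved beyond the scanner error, 163 of them with normexp, and 0 of the called ones changed sign. The median of bright low-purine genes was -0.12, and -0.57 with normexp, so counts move with it: 57 bright low-purine genes were higher and 510 lower with normexp (56 of the 111 and 82 of the 86 shared), and 5093 and 861 of all measured. Higher genes made up 56.3% of called bright low-purine genes, and 67.8% after centring on their median, 67.2% with the median by purine and level removed and 10.1% with normexp. Of all called genes they made up 80.8%, 66.9% with cyclic loess and 36.8% with quantile scaling. Quantile scaling called 1011 of all measured genes higher and 1736 lower, and cyclic loess 624 lower. With a signal above background required on at least 1 array 5210 were higher and 735 lower, with no filter 7502 and 1100, and with both arrays above the brightest control probe, a setting chosen after seeing the data, 625 and 242. At 1.5-fold 2515 and 1359 of all measured and 202 and 324 of the bright low-purine genes were higher and lower, and at 3-fold 876 and 92, and 62 and 26. Of probes with at most 45% purines 65 were higher and 46 lower. With a mean log2 level of at least 1, 70 were higher, and with at least -1, 170. Dim signals limit the rest.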
